A study of Mus musculus with 14 samples.

Results

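Rora, Ahr, Ccr6, Il17a, Il17f, Il22, Il23r and Il1r1 are 8 genes used by T helper 17 (Th17) cells, and their RNA levels were followed in mouse CD4+ T cells with deletions of Hdac1 and Hdac2. They were chosen by name, as the transcription factors, cytokines and receptors of the Th17 program, out of 45195 genes that had a level in at least 1 of the 2 experiments. The data were RNA-Seq measurements of 14 samples of activated CD4+ T cells from C57BL/6 mice, which the study's methods place between 6 and 12 weeks of age. In the unrestimulated experiment, 4 wild-type (WT) samples were compared with 4 HDAC1cKO-HDAC2HET samples (HDAC1f/f HDAC2f/+ CD4-cre+), in which T cells lack HDAC1 and keep a single working Hdac2 allele, after 3 days of culture. In the restimulated experiment, 3 WT samples were compared with 3 HDAC1cKO samples (HDAC1f/f CD4-cre+), which keep both Hdac2 alleles, after 3 days of culture and 12 hours with anti-CD3. Every culture began with naive CD4+ T cells sorted as CD25-, CD44 low and CD62L+ from spleen and, by the methods, lymph nodes, and was activated with anti-CD3 and anti-CD28 in IL-2 without cytokines that drive a helper fate (Th0 conditions). The Cre recombinase was driven by Cd4 regulatory elements, so deletion took place in T cells from the thymus on and was not limited to helper cells. By the methods, viable cells were sorted again after the 3 days of culture, before RNA was prepared. That step is not described there for the restimulated samples.

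Th17 cells arise when naive CD4+ T cells are activated together with IL-6, which signals through STAT3, and TGF-β. RORα, the nuclear receptor encoded by Rora, is among the factors that act on the genes of the cytokines IL-17A and IL-17F and on Il23r, while AHR, a ligand-activated transcription factor, is known for its part in IL-22 production. IL-23 and IL-1 sustain the cells through the receptors encoded by Il23r and Il1r1, and CCR6, the receptor for CCL20, guides them to mucosal and inflamed tissue. HDAC1 and HDAC2 are enzymes that remove acetyl groups from histones and other proteins. The comparisons asked how the RNA of this program differed between mutant and WT cells within each experiment.

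Levels are given in FPKM, the number of sequenced fragments scaled to both the length of the transcript and the size of the library. The estimated depth of the libraries was 23400000 to 55100000 fragments. The targeted gene followed the labels in every sample. Hdac1 stood at 76.3 to 79.6 FPKM in WT against 6.65 to 10.7 FPKM in HDAC1cKO-HDAC2HET samples. After restimulation WT samples held 72.3 to 81.1 FPKM and HDAC1cKO samples 8.52 to 12.1 FPKM. Hdac2 stood at 58.2 to 60.3 FPKM in WT and 34.0 to 37.0 FPKM in HDAC1cKO-HDAC2HET samples. The summed level of the alpha-beta CD4 T cell markers Cd4, Cd3e, Cd3d, Trac and Cd28 was 1544 to 1715 FPKM in WT and 1226 to 1367 FPKM in HDAC1cKO-HDAC2HET samples. It was 1465 to 1791 FPKM in restimulated WT and 1464 to 1637 FPKM in HDAC1cKO samples, so the labelled cell type was present throughout. The restimulated samples were not matched for sex: Xist was at 42.9 and 33.2 FPKM in WT replicates 1 and 3 and at most 0.0435 FPKM in WT replicate 2 and the 3 HDAC1cKO samples. WT replicate 3 of that experiment stood apart, since it also held the Y-linked Ddx3y at 1.93 FPKM and Eif2s3y at 5.56 FPKM, levels between those of the female and the male samples. The changes of the tested members in that experiment are therefore given with and without this library. The study describes the 4 samples of each unrestimulated group as independent preparations, and nothing in the labels says whether the restimulated samples came from separate animals, so p-values there measure the spread between these samples.

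Among the 8 genes, 7 had a promoter in the RefSeq table for the build GRCm38.p6, with 9 start sites in all. The 250 bases before each start were searched on both strands for AGGTCA, the core of the element bound by ROR nuclear receptors, since Rora encodes such a receptor. That core lay in 4 of the 9 promoters, beside 14% of 32851 RefSeq promoters of the same length. The promoters holding it are shown 5′ to 3′ on the strand of the gene, with the core (AGGTCA, or TGACCT where it lies on the other strand) in capitals.
Il17f, chr1:20784271-20784520, minus strand: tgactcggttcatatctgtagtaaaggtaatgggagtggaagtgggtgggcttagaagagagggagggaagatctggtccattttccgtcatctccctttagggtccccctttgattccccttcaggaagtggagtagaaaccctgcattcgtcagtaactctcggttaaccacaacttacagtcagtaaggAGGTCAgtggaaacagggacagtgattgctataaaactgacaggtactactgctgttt
Il17a, chr1:20730655-20730904, plus strand: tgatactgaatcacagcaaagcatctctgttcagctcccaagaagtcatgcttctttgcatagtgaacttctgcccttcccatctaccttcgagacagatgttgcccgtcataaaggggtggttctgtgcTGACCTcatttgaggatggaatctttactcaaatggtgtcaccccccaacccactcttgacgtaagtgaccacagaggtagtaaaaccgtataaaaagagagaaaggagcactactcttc
Il23r, chr6:67491856-67492105, minus strand: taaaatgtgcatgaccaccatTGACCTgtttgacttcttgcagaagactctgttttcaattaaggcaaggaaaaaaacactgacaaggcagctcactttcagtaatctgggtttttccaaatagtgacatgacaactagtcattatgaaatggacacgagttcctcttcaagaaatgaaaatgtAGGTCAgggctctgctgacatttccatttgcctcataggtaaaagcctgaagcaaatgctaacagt
Ccr6, chr17:8235793-8236042, plus strand: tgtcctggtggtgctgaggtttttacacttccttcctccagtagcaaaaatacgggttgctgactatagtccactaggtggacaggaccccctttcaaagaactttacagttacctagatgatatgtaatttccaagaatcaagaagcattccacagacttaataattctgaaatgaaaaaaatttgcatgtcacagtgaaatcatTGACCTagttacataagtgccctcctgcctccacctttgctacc
The Il23r window held 2 copies of the core and each of the other three held 1. The motifs of other factors were searched in the same windows. TGTGGT, which RUNX factors bind, was found at Il17a and Il17f and in 14% of all promoters. TGANTCA, the AP-1 motif, was found at Il17a and in 6.75% of all promoters, and TTCNNNGAA, the STAT motif, at Ccr6 and in 7.02%. GCGTG, the core bound by AHR with its partner ARNT, was found at Rora and at a downstream start site of Il1r1 and in 28.2% of all promoters. No copy of the ROR core overlapped another motif in these windows. A match describes the letters of the window and is no measurement of binding.

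In the unrestimulated experiment, Il17f, Rora and Ahr were lower in HDAC1cKO-HDAC2HET than in WT cells. The mean level of Il17f was 0.166 of that in WT, that of Rora 0.335 and that of Ahr 0.324. Ccr6, the member with the highest level, did not differ beyond the spread between samples, and the RNA of Il17a, Il22, Il23r and Il1r1 was near the limit of detection in both groups. Thus 3 of the 4 members that could be tested were called lower and 0 higher at an adjusted p of at most 0.05, in an experiment in which 51.8% of 15081 genes were called, 27.6% as lower and 24.2% as higher. All 3 also fell by at least 2-fold, as did 5.57% of all genes tested. In bulk RNA, fewer cells that express a gene and less RNA per cell cannot be told apart.

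Rora encodes RORα and lies at chr9:68653786-69388246 on the plus strand of GRCm38 (mm10). Its level was 2.01, 1.39, 1.54 and 1.20 FPKM in WT replicates 1 to 4 and 0.371, 0.567, 0.676 and 0.440 FPKM in the HDAC1cKO-HDAC2HET samples. Every mutant sample lay below every WT sample. Rora fell by 1.42 on the log2(FPKM + 0.1) scale (SE 0.21, limma adjusted p = 0.000724), from a mean of 1.53 ± 0.346 to 0.513 ± 0.135 FPKM (SD, n = 4 and 4). An antisense gene, Gm15511, overlaps the locus, and its reads cannot be separated from those of Rora where strand was not used.

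Ahr, which encodes the aryl hydrocarbon receptor, lies at chr12:35497974-35535038 on the minus strand and overlaps the noncoding gene Gm48236 on the other strand. It was measured at 0.562, 0.425, 0.383 and 0.378 FPKM in WT and at 0.188, 0.182, 0.0945 and 0.102 FPKM in HDAC1cKO-HDAC2HET samples. These ranges were also apart. Ahr fell by 1.16 on the same log2 scale (SE 0.20, limma adjusted p = 0.0017), from 0.437 ± 0.0859 to 0.141 ± 0.0502 FPKM (SD, n = 4 and 4).

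The cytokine genes Il17a and Il17f are neighbours on chromosome 1, and their products form the IL-17 dimers that act on epithelial and stromal cells. Il17f (chr1:20777146-20790617, minus strand) stood at 0.797, 0.596, 0.757 and 0.526 FPKM in WT and at 0.147, 0.0867, 0.123 and 0.0873 FPKM in HDAC1cKO-HDAC2HET samples. The lowest WT value was thus above the highest mutant value. Il17f fell by 1.86 on the log2 scale (SE 0.18, limma adjusted p = 7.69e-05), from 0.669 ± 0.129 to 0.111 ± 0.0292 FPKM (SD, n = 4 and 4). These are low levels, which come to an estimated 25 to 43 fragments in a WT library and 3 to 7 in a mutant library. The locus listed for Il17f ended at chr1:20784270, inside the annotated span, and the promoter window shown above borders that end. Since 0.1 FPKM was added before the logarithm was taken, the log2 change of so low a gene understates the change in FPKM.

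Il17a (chr1:20730905-20734496, plus strand) was listed at 0.0607, 0.0238, 0.0914 and 0 FPKM in WT and at 0.023, 0.0241, 0 and 0.0195 FPKM in HDAC1cKO-HDAC2HET samples, estimates that rest on 0 to 3 fragments per library. The groups overlapped (2-sided exact permutation p = 0.286), and no difference was detectable at this depth. Il22 (chr10:118204942-118210047, plus strand), the cytokine through which helper cells act on barrier epithelium, was listed at 0 in all 4 WT samples and in 3 of 4 HDAC1cKO-HDAC2HET samples and at 0.0245 FPKM, a single fragment, in mutant replicate 2. In these Th0 cultures the RNA of both cytokines was at or near 0 in either genotype.

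Among the receptors, Ccr6 (chr17:8236043-8257141, plus strand) had levels of 9.87, 4.77, 9.44 and 6.09 FPKM in WT and of 5.77, 6.53, 7.83 and 5.51 FPKM in HDAC1cKO-HDAC2HET samples. The mutant values lay inside the range of the WT values. The log2 change was -0.18 (SE 0.25, limma adjusted p = 0.576). Il23r (chr6:67422932-67491855, minus strand), which encodes the chain of the IL-23 receptor that is particular to IL-23, was listed at 0, 0.00947, 0 and 0 FPKM in WT and at 0, 0.145, 0.111 and 0.0538 FPKM in mutant samples, or 1 fragment in all WT libraries and at most about 14 in a mutant library. The highest WT value was exceeded in 3 of 4 mutant samples, but the groups overlapped at 0 (exact permutation p = 0.143). The mutant sample at 0, replicate 1, held assembled loci without a name inside the gene that touched exon 7, described below. Their part in this value was not tested. Il1r1 (chr1:40225080-40317257, plus strand), which encodes the signalling receptor for IL-1, was at most 0.0114 FPKM in WT and was listed at 0 in the 4 mutant samples (exact permutation p = 0.143). A listing at 0 of a locus without a name can be a failed estimate, and Il1r1 was left out of the test of this experiment.

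**Figure D1:**
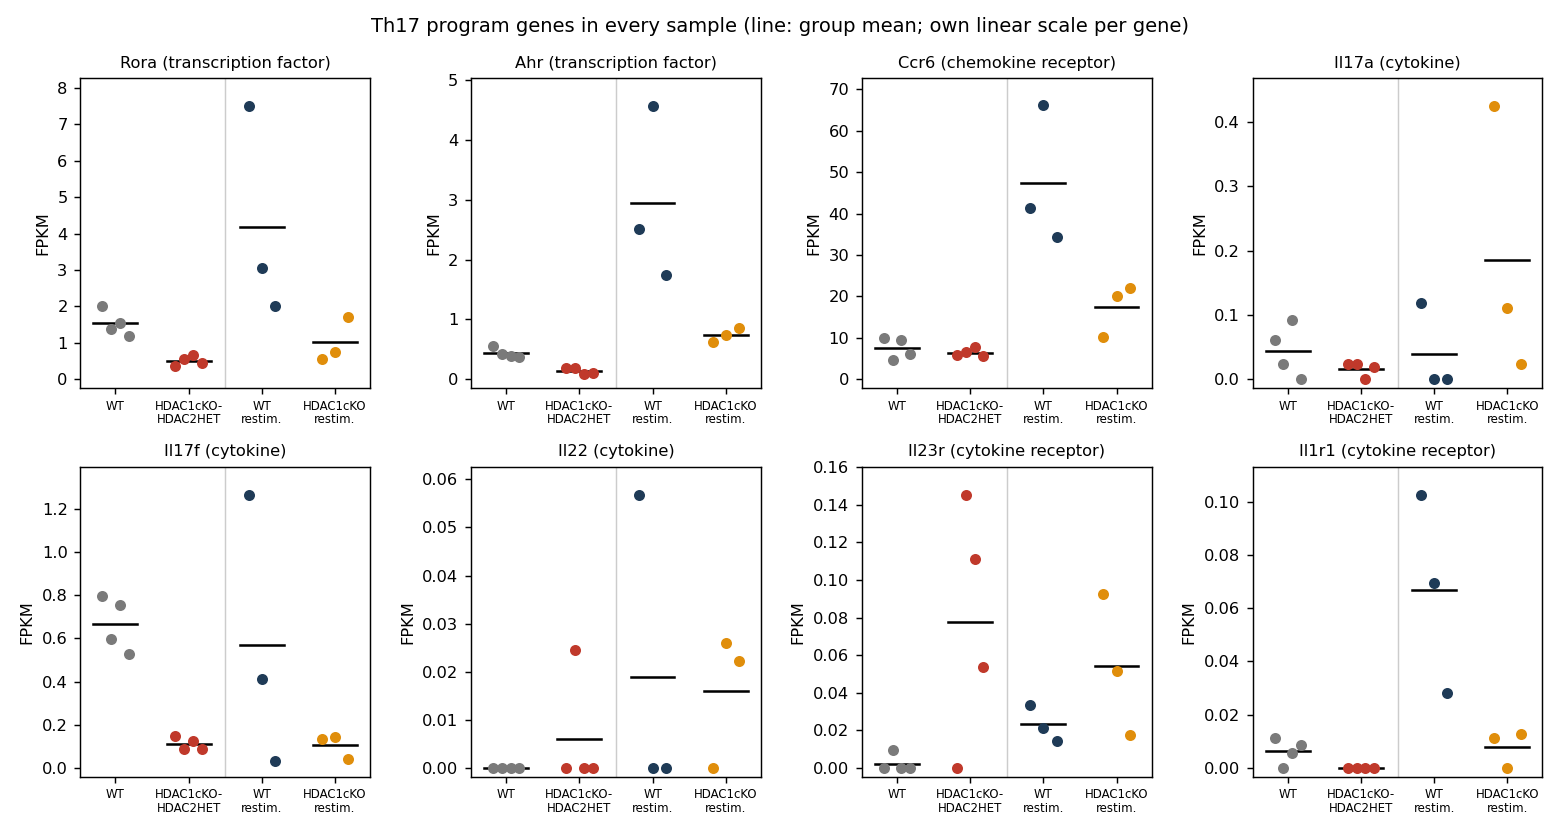
Level of each of the 8 Th17 genes in FPKM, on a linear axis that starts at 0, in every sample of the 4 groups, where each point is a sample and each line is the mean of a group. Rora, Ahr and Il17f show no overlap between WT and HDAC1cKO-HDAC2HET samples, Ccr6 does, and Il17a, Il22, Il23r and Il1r1 lie under 0.5 FPKM in every sample.

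For single members, the 2-sided exact permutation test over 70 arrangements of the samples gave p = 0.0286 for Rora, Ahr and Il17f, the smallest value that 4 against 4 samples allow, and p = 0.543 for Ccr6. Groups with every mutant sample below every WT sample were found for 3 of the 4 tested members and for 26.9% of all genes tested. The median log2 change of the 4 tested members was -1.29, beside -0.04 over all genes tested. With 1 in place of 0.1 added to the FPKM values, 3 members were called but 0 of them at a fold of at least 2, and the log2 changes were -0.74 for Rora, -0.33 for Ahr and -0.58 for Il17f.

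In the restimulated experiment, the means of Rora, Ahr and Ccr6 in HDAC1cKO cells were 0.241, 0.252 and 0.370 of those in WT cells, and in each of these genes every HDAC1cKO sample lay below every WT sample. None of the 5 members tested passed the test, with 0 calls by limma. At an unadjusted limma p under 0.05 there were 3 of the 5, beside 1992 of all 13886 genes tested. Over all 13886 genes tested, 0.072% were called and 0.0576% were called lower, so that this experiment made few calls of any kind. Ranges that were apart in this direction were found for 3 of the 5 tested members, and for 12.4% of all genes tested. With 3 against 3 samples the exact permutation test over 20 arrangements cannot give a p below 0.1.

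Rora stood at 7.51, 3.05 and 2.01 FPKM in the restimulated WT samples and at 0.570, 0.758 and 1.71 FPKM in the HDAC1cKO samples. The WT values spread widely, with replicate 1 above the others, and WT replicate 3 lay close to the highest HDAC1cKO sample. The means were 4.19 ± 2.92 and 1.01 ± 0.610 FPKM (SD, n = 3 and 3), and the log2 change was -1.87 (SE 0.58, limma adjusted p = 0.26). Ahr stood at 2.51, 4.56 and 1.75 FPKM in WT and at 0.616, 0.745 and 0.861 FPKM in HDAC1cKO samples. The HDAC1cKO samples lay close together, well under the lowest WT sample, and the log2 change was -1.76 (SE 0.36, limma adjusted p = 0.179).

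Ccr6 stood at 41.5, 66.1 and 34.3 FPKM in the restimulated WT samples and at 10.3, 20.1 and 22.1 FPKM in the HDAC1cKO samples. No values were shared between the ranges. The means were 47.3 ± 16.7 and 17.5 ± 6.32 FPKM (SD, n = 3 and 3), with a log2 change of -1.45 (SE 0.37, limma adjusted p = 0.21). Il1r1 was much lower than Ccr6 on the FPKM scale, at 0.102, 0.0695 and 0.0283 FPKM in WT and at 0.0112, 0 and 0.0129 FPKM in HDAC1cKO samples. Its ranges too were apart (exact permutation p = 0.1), but at this level it was under the minimum of 0.1 FPKM and was not tested across genes. Il23r was at 0.0336, 0.0215 and 0.0145 FPKM in WT and at 0.0927, 0.0519 and 0.0175 FPKM in HDAC1cKO samples, with ranges that overlapped (exact permutation p = 0.3).

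Neither IL-17 gene separated the restimulated groups. Il17f was at 1.27, 0.414 and 0.0345 FPKM in WT and at 0.132, 0.144 and 0.0409 FPKM in HDAC1cKO samples. WT replicate 3 had the lowest level of all 6 samples, and the log2 change of -1.19 (SE 0.85, limma adjusted p = 0.568) was -0.40 without WT replicate 1 and -2.07 without WT replicate 3. Il17a was at 0.118, 0 and 0 FPKM in WT and at 0.424, 0.11 and 0.0235 FPKM in HDAC1cKO samples, or about 4 fragments in all against about 14, 4 and 1. It passed the filter only through the HDAC1cKO group, its ranges overlapped, and the log2 change was 0.88 (SE 0.64, limma adjusted p = 0.576), or 0.69 without WT replicate 3 (limma adjusted p = 0.719). Il22 was listed at 0.0567 FPKM in WT replicate 1, at 0.0261 and 0.0222 FPKM in HDAC1cKO replicates 2 and 3, and at 0 in the other three samples.

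Because the sexes were unequal between the restimulated groups, the fit was repeated with sex, taken from Xist so that WT replicate 3 counted as female, as a covariate. All HDAC1cKO samples counted as male, and WT replicate 2 was the only male WT sample. The genotype term then compared the HDAC1cKO samples with that WT sample alone. The log2 changes were -2.48 for Ahr, -1.99 for Ccr6 and -1.64 for Rora, and no p-values are given for this fit. Without WT replicate 3 the changes were -2.06 for Ahr, -1.65 for Ccr6 and -2.27 for Rora, with limma adjusted p-values of 0.126, 0.232 and 0.245. Leaving out WT replicate 3 led to no call among the members. When the 14 samples were fitted together, so that both experiments shared an estimate of the spread, Ahr, Ccr6 and Rora passed at limma adjusted p-values of 0.0051, 0.0211 and 0.0225. Over all genes, the joint fit called 640 higher and 708 lower in HDAC1cKO cells, beside 2 and 8 in the separate fit. The SE of Rora was 0.448 in the joint fit and 0.582 in the separate fit. The joint fit also tested fewer genes, 12334 in place of 13886, and the parts of the spread and of the gene set in these calls were not separated.

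**Figure D2:**
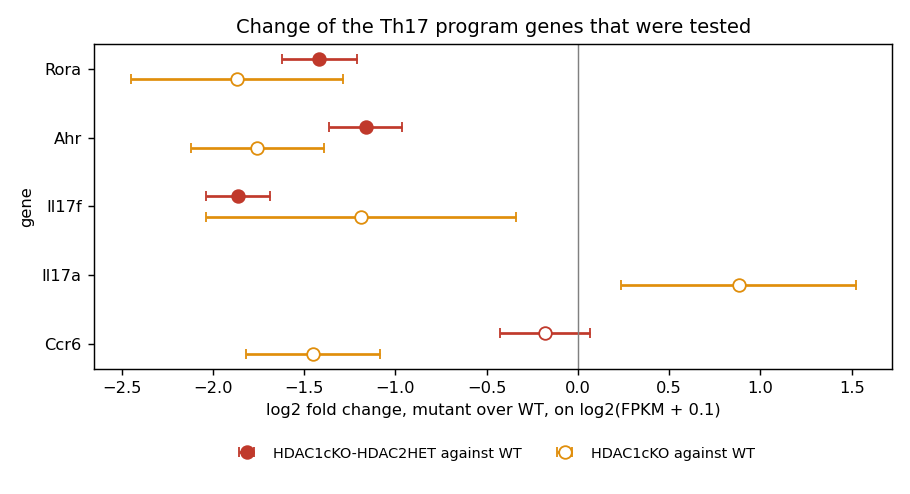
Change of each tested Th17 gene between mutant and WT on the log2(FPKM + 0.1) scale, by experiment, with bars of 1 SE and filled points for an adjusted p of at most 0.05. Il17f, Rora and Ahr at -1.86, -1.42 and -1.16 in HDAC1cKO-HDAC2HET cells are filled, and no point of the HDAC1cKO experiment is filled.

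A contrast of the 4 group means asked whether the changes differed between the experiments. Genotype and culture both differ between the experiments and cannot be told apart. Ccr6 had the largest difference of the members, as its log2 change was higher by 1.27 (SE 0.45, limma adjusted p = 0.0798) in the HDAC1cKO-HDAC2HET experiment. The differences were 0.45 (SE 0.59) for Rora, 0.59 (SE 0.40) for Ahr and -0.67 (SE 0.81) for Il17f. By limma, 0 of the 4 members tested were called, beside 15.7% of 12334 genes. At an unadjusted limma p under 0.05 there was 1 of the 4 members, beside 3628 of the 12334 genes. With sex as a covariate the differences were 1.32 for Ahr and 1.81 for Ccr6. In that fit a single WT sample stood for the restimulated WT cells.

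The experiments were processed separately, so that levels across all 4 groups can be set side by side but were not tested. Ahr was listed by name in the unrestimulated samples and as a matched locus in the restimulated ones, and Il1r1 the other way round. The part of this in their order was not tested. Rora, Ahr, Ccr6 and Il1r1 had their highest mean in restimulated WT cells. Ahr gave a full order without overlap between neighbours, from 2.94 FPKM in restimulated WT through 0.741 in restimulated HDAC1cKO and 0.437 in WT to 0.141 in HDAC1cKO-HDAC2HET cells. Ccr6 followed the same order at 47.3, 17.5, 7.54 and 6.41 FPKM, and its last pair of neighbours overlapped. For Rora, restimulated WT at 4.19 FPKM came ahead of WT at 1.53, restimulated HDAC1cKO at 1.01 and HDAC1cKO-HDAC2HET at 0.513 FPKM, and the neighbours after the first pair overlapped. Il17f did not follow restimulation, with 0.669 FPKM in WT, 0.571 in restimulated WT, 0.111 in HDAC1cKO-HDAC2HET and 0.106 in restimulated HDAC1cKO cells, and neighbours in this order overlapped. For Il23r the order ran from 0.0776 FPKM in HDAC1cKO-HDAC2HET through 0.054 in restimulated HDAC1cKO and 0.0232 in restimulated WT to 0.00237 in WT cells. Only the last of these steps was without overlap. Il1r1 had 0.0667 FPKM in restimulated WT cells, apart from the other three groups, whose means were at or under 0.00805 FPKM.

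The genes most like each member were taken as the 3 protein-coding genes with the highest Pearson r over the 8 unrestimulated samples, out of 11032 compared. They were Zfp239, Ankrd13c and Dcaf10 for Rora (r = 0.997, 0.995 and 0.993) and Naglu, Rbl1 and Nlrc5 for Ahr (r = 0.997, 0.992 and 0.992). They were Marf1, Zfp248 and Gpr108 for Il17f (r = 0.998, 0.997 and 0.997). For Ccr6, which did not separate the genotypes, the values were lower, with Xlr3a, Hook2 and Trim12c at r = 0.961, 0.953 and 0.946. The points share libraries and genotypes, so that any pair of genes that both differ between the genotypes has a high r, and the ranking is only a description.

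The members were then set beside 67 other genes of the pathway in 8 lists. In HDAC1cKO-HDAC2HET cells 52 of them were tested, and 24 fell and 12 rose. This comes beside 27.6% and 24.2% of all genes. In HDAC1cKO cells 58 were tested and 0 were called by limma. At an unadjusted limma p under 0.05 there were 21 of the 58, beside 1992 of all 13886 genes tested. The median log2 changes of the lists together were -0.18 and -0.17, beside -0.04 and -0.03 over all genes tested.

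Of 11 Th17-promoting transcription factors tested in HDAC1cKO-HDAC2HET cells, 3 rose and 4 fell. Runx1, a Runt-domain factor, fell from 10.9 to 5.90 FPKM (log2 change -0.88). Stat3, which carries the IL-6 signal, rose from 56.7 to 110 FPKM (log2 change 0.95), and Ikzf3, which encodes Aiolos, rose from 3.28 to 8.52 FPKM (log2 change 1.4). In HDAC1cKO cells the log2 change of Stat3 was 0.39 (limma adjusted p = 0.395), or 0.38 without WT replicate 3.

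Of 8 factors that restrain the Th17 fate, 4 rose and 1 fell in HDAC1cKO-HDAC2HET cells. Eomes, a T-box factor of cytotoxic cells, rose from 2.84 to 36.8 FPKM (log2 change 3.71) and Tbx21, which encodes the Th1 factor T-bet, rose from 26.7 to 91.3 FPKM (log2 change 1.83). Socs3, an inhibitor of STAT3 signalling, rose from 5.61 to 20.9 FPKM (log2 change 1.87), and Il27ra, the receptor for IL-27, fell from 39.5 to 24.9 FPKM (log2 change -0.67). In HDAC1cKO cells the log2 change of Tbx21 was 2.41 (limma adjusted p = 0.327). It was 3.33 without WT replicate 3 (limma adjusted p = 0.174) and 4.46 with sex as a covariate (limma adjusted p = 0.0959).

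Receptors and kinases of the cytokines that induce Th17 cells moved in both directions, with 5 of 12 lower and 2 higher. Il6ra, the ligand-binding chain of the IL-6 receptor, fell from 21.8 ± 1.84 to 2.55 ± 0.304 FPKM (SD, n = 4 and 4), by 3.05 on the log2 scale (SE 0.10, limma adjusted p = 9.1e-07). Jak2 fell from 138 to 48.4 FPKM (log2 change -1.51) and Tgfbr1, a chain of the TGF-β receptor, from 6.47 to 3.44 FPKM (log2 change -0.90). Il21r rose from 73.4 to 109 FPKM (log2 change 0.57), and Il12rb1, which pairs with the product of Il23r in the IL-23 receptor, rose from 52.7 to 73.7 FPKM (log2 change 0.48). In HDAC1cKO cells Il6ra, Tgfbr1 and Il12rb1 had log2 changes of -0.46, -0.67 and 0.42 and were not called. Without WT replicate 3 these were -0.47, -0.73 and 0.60. Among the IL-17 receptor chains a single gene could be tested, and Il17ra fell from 11.0 to 9.08 FPKM (log2 change -0.27).

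Of 5 other cytokines and chemokines linked to Th17 cells, 2 fell and 1 rose in HDAC1cKO-HDAC2HET cells. Ccl20, the ligand of CCR6, fell from 1.12 to 0.15 FPKM (log2 change -2.19, limma adjusted p = 0.00213), while Ccr6 itself was not called. Tnfsf11, which encodes RANKL, fell from 48.0 to 22.7 FPKM (log2 change -1.08), and Csf2, which encodes GM-CSF, rose from 8.15 to 34.3 FPKM (log2 change 2.09). Of 7 partners and targets of AHR, 3 fell and 2 rose. Arnt, with which AHR binds DNA, fell from 14.5 to 10.1 FPKM (log2 change -0.53) and the target gene Tiparp from 4.98 to 3.18 FPKM (log2 change -0.63). The chaperone genes of the AHR complex, Hsp90ab1 and Ptges3, rose by 0.39 and 0.14 on the log2 scale. Ahrr, the AHR repressor and a target of AHR itself, was at 0.0726 to 0.158 FPKM in WT and 0.0426 to 0.0626 FPKM in mutant samples, under the minimum for the test. In the restimulated experiment, Arnt and Ahrr had log2 changes of -0.40 and -1.30 (-0.25 and -1.54 without WT replicate 3), and neither was called. Ahrr passed the filter there only through the WT group, with a mean of 0.0917 FPKM in HDAC1cKO samples.

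In the last lists every tested gene was called lower in HDAC1cKO-HDAC2HET cells, beside 27.6% of all genes tested. In the list of ROR relatives and of clock genes that carry ROR elements 5 of 5 fell, among them Nr1d2, which encodes REV-ERBβ, from 2.99 to 1.39 FPKM (log2 change -1.06). The median log2 change of this list was -0.95. In the cluster of IL-1 receptor genes on chromosome 1 that surrounds Il1r1, 4 of 4 fell, and their median log2 change was -1.22. Il1r2, a decoy receptor for IL-1, fell from 0.559 to 0.0725 FPKM (log2 change -1.97, limma adjusted p = 0.000234) and Il18r1, the receptor for IL-18, from 5.10 to 1.95 FPKM (log2 change -1.32). Il1r2 passed the filter of 0.1 FPKM here only through the WT group. In HDAC1cKO cells the log2 change of Il1r2 was -2.19 with and without WT replicate 3 (limma adjusted p = 0.0767 and 0.116). No gene of either list was called in these cells. Their median log2 changes were -0.43 for ROR relatives and clock genes, which moved in both directions, and -0.89 for the cluster.

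**Figure D3:**
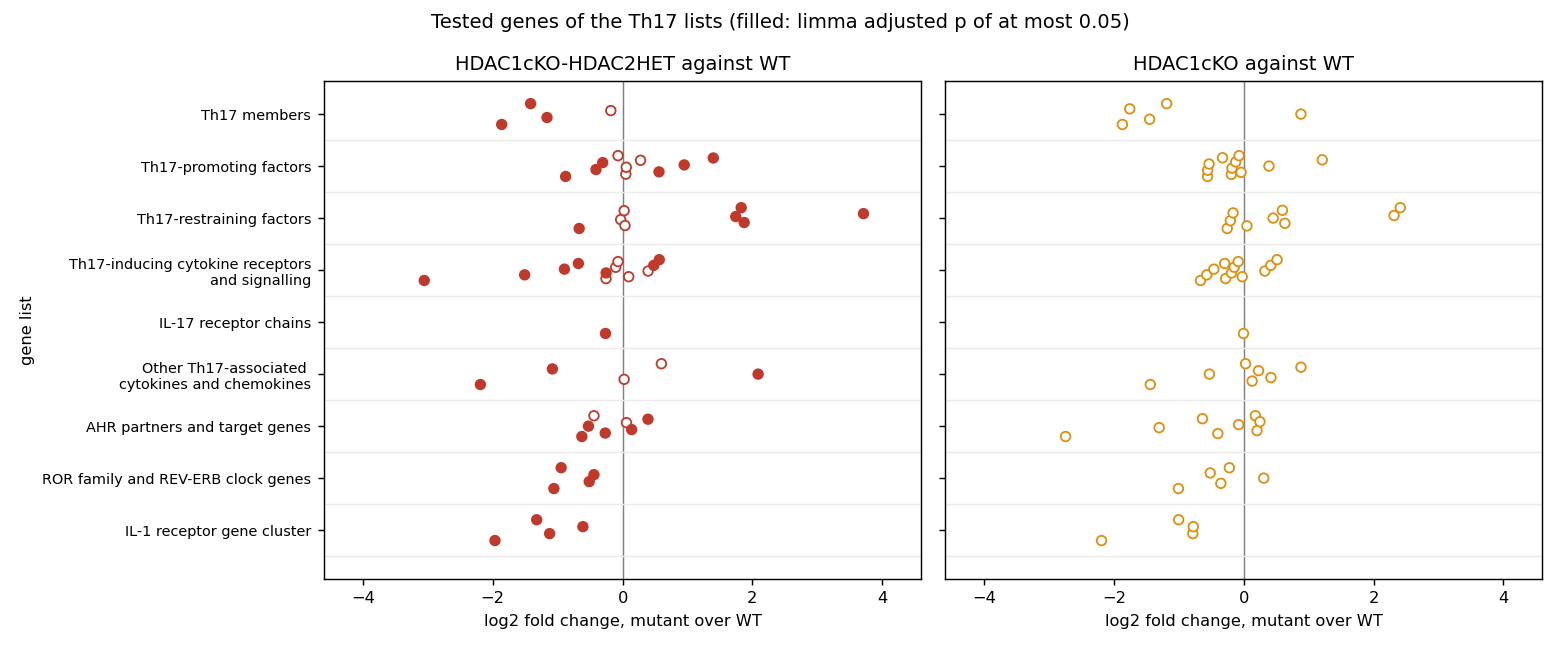
Change between mutant and WT of tested genes of the Th17 members and the 8 pathway lists on the log2(FPKM + 0.1) scale, with a panel for each experiment and filled points for an adjusted p of at most 0.05, and with 1 tested gene not drawn. The list of ROR relatives and clock genes and the IL-1 receptor cluster lie to the left of 0 in HDAC1cKO-HDAC2HET cells. Il1r2 is farthest at -1.97 and passed the filter only through the WT group. No point is filled in the HDAC1cKO panel.

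Beside its low level over the exons, Il23r held assembled transcripts without a name in mutant samples. They numbered 11 in the 4 HDAC1cKO-HDAC2HET samples, with at least 1 in each of them, and 1 in the 3 restimulated HDAC1cKO samples, in replicate 3. The WT samples of both experiments held 0. The 12 loci lay within chr6:67441784-67455241, a stretch of 13458 bases in introns 6 and 7 of the 11-exon gene, and 3 of them touched exon 7, by 47, 37 and 31 bases. Their levels were 0.902 to 107 FPKM in HDAC1cKO-HDAC2HET samples and 0.421 FPKM in the HDAC1cKO sample. The highest value belongs to a locus of 97 bases, a length at which FPKM is easily inflated. The strand of these loci was not used, so that transcripts of Il23r and transcripts running against it cannot be told apart. Cufflinks reports a locus only where enough reads are found together, so that 0 loci in WT is no measure of absence. Of the other members, only Ccr6 held loci of this kind, in 3 of 4 WT samples and in restimulated samples of both genotypes. Genes outside the members were not searched for such loci.

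**Figure D4:**
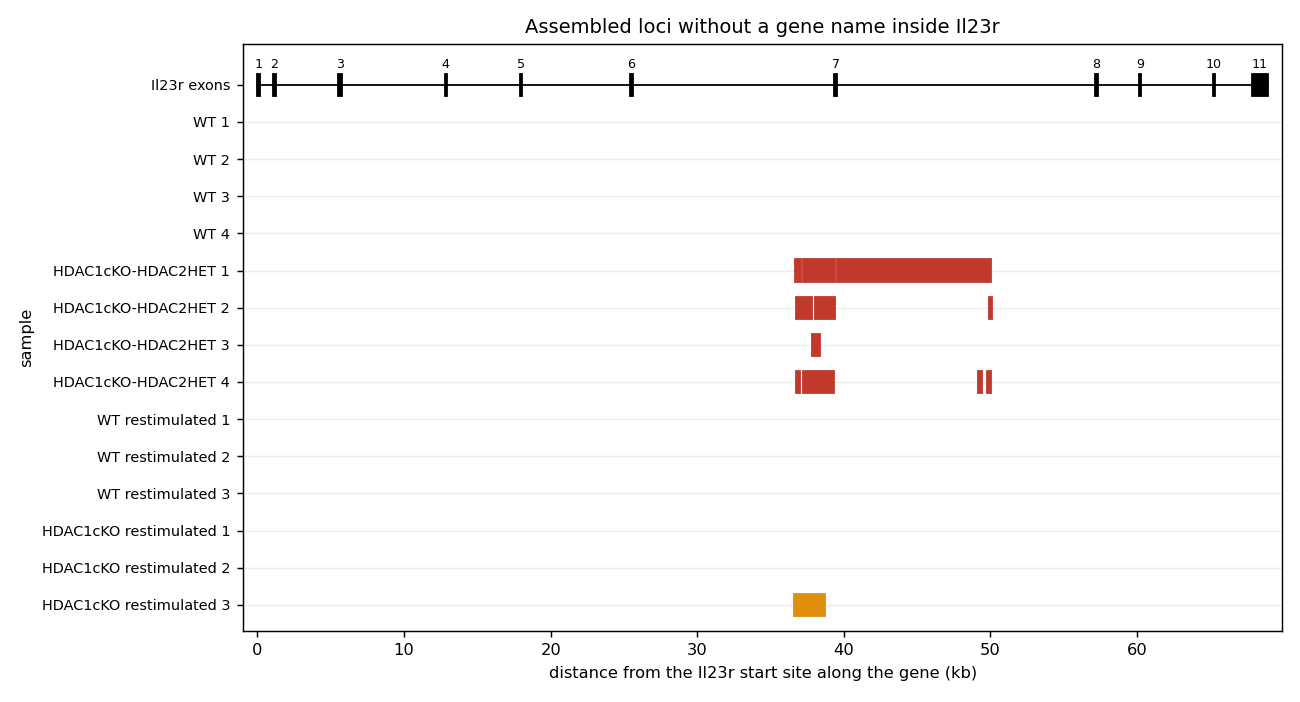
Assembled loci without a name inside Il23r, drawn as whole spans for each sample that has any, against the distance from the annotated start site in kilobases, with exons 1 to 11 drawn above. The loci of the 4 HDAC1cKO-HDAC2HET samples and of HDAC1cKO replicate 3 lie near exon 7, in introns 6 and 7.

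Markers of other cells that can carry Th17 genes were compared in the same samples. The markers of gamma-delta T, NKT and innate lymphoid cells (Trdc, Tcrg-C1, Sox13, Zbtb16 and Ncr1), some of which make IL-17 without prior activation, summed to 1.07 to 1.5 FPKM in WT and 0.342 to 0.655 FPKM in HDAC1cKO-HDAC2HET samples, a sum that moved with Rora, Ahr and Il17f though not every marker did. Of the 3 tested, Tcrg-C1 and Trdc fell and Sox13 was not called (limma adjusted p = 0.582). Tcrg-C1 was at 0.473 to 0.629 FPKM in WT and 0.025 to 0.0931 FPKM in mutant samples (limma adjusted p = 4.9e-05), and passed the filter only through the WT group. Zbtb16, under the minimum for the test, had the higher mean in mutant samples, 0.042 against 0.0114 FPKM (exact permutation p = 0.0571), and Ncr1 was at most 0.0155 FPKM in every sample. In the restimulated samples Trdc was not among the genes with a value, and the sum of the other four was 0.278 to 0.348 FPKM in WT and 0.336 to 0.781 FPKM in HDAC1cKO samples, with Ncr1 at 0 in all of them, Tcrg-C1 at 0 in WT and Tcrg-C1 at 0.064 to 0.338 FPKM in HDAC1cKO samples, the group in which Il17a was listed highest. Among the markers of regulatory T cells, Ikzf2 was at 0.567 to 0.948 FPKM in WT and 0.140 to 0.308 FPKM in HDAC1cKO-HDAC2HET samples. After restimulation it was at 1.27 to 1.60 FPKM in WT and 0.522 to 0.587 FPKM in HDAC1cKO samples. Foxp3, the other marker, was listed at 0 in every restimulated sample. It was also at 0 in the unrestimulated samples, apart from a WT sample at 1.48 FPKM, and was left out of the tests. As for Il1r1, a listing at 0 can be a failed estimate, so these values are no measure of absence. The CD8 T cell markers summed to 3.28 to 5.96 and 11.7 to 15.2 FPKM in the unrestimulated groups and to 3.8 to 4.86 and 6.52 to 7.30 FPKM in the restimulated groups. Cd8b1 made up most of these sums. Cd8a was at 0.0390 to 0.0858 FPKM in WT and 0.315 to 0.574 FPKM in HDAC1cKO-HDAC2HET samples, and at most 0.299 FPKM after restimulation. B cell markers summed to 0.497 to 0.945 and 2.78 to 4.38 FPKM, and to 0.684 to 0.803 and 0.718 to 1.02 FPKM after restimulation. The myeloid markers with a value in every unrestimulated sample, Lyz2, Adgre1 and Itgax, summed to 0.0226 to 0.0786 FPKM in WT and 0.0204 to 0.0474 FPKM in HDAC1cKO-HDAC2HET samples. The restimulated sums of 4.89 to 5.59 FPKM in WT and 4.00 to 5.63 FPKM in HDAC1cKO samples also hold Cd68, which made up 4.53 to 5.39 and 3.88 to 5.60 FPKM of them, so that they cannot be set against the unrestimulated sums. Lyz2 was at 0 in every restimulated sample. The part of these cells in the levels of the members was not tested.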

How the data were processed

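Cufflinks FPKM values were used for 14 libraries of single-end reads, which the authors mapped to mm10 with TopHat, assembled library by library and deposited without counts. Submitters' processing notes also list STAR 2.5.2b, Subread 1.5.1, R 3.4 and edgeR, whose part in these files is not given in the sources used here. A gene was taken by its name or, where a library listed the locus without one, by a span sharing at least 0.8 of the joint span with the gene in GRCm38. A gene with a matched locus at 0 was left out of that experiment. Depth was estimated from the confidence bounds of low values, of which 82.2% to 88.3% were whole fragments within 0.05.

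Groups followed the labels, and each experiment was tested separately. Values of log2(FPKM + 0.1) were fitted by limma 3.58.1 (R 4.3.3) with an intensity trend, for genes with a mean of at least 0.1 FPKM, adjusted by Benjamini-Hochberg over all of them (called at 0.05, and with a fold of at least 2). Scripts were tested on simulated data. Single members had 2-sided exact permutation tests. From each list the text names the 2 called genes with the largest and the 2 with the smallest changes and the genes that define its role. The members, lists and alternatives were chosen with earlier results of these data known. The alternatives changed the added value, filter, scaling, variance model, weights, sex, joint fit, replicate block, matching, gene types and each sample in turn. Replicate numbers did not pair the samples. A pathway gene is not reported here singly and is not drawn in the figure of the lists, though it remains in their counts. Some marker genes lacked a value in every sample and were left out of the sums. Figures used matplotlib 3.10.9 and pandas 2.3.3.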

Additional observations from a re-analysis of the deposited data

Results flagged for a closer look

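In groups of 4 samples, 62 sets of values were searched for a sample far from the other three, and 3 were found, where chance gives about 5% of groups. In HDAC1cKO-HDAC2HET samples Ikzf3 had a lowest value of 6.21 FPKM and Eomes a highest value of 45.7 FPKM, each set apart from the rest of its group. In WT samples Hsp90ab1 had a lowest value of 1599 FPKM that stood apart. No member was among them.

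Among the pathway genes chosen by rule and the targeted genes, 5 were found for which the log2 change in HDAC1cKO-HDAC2HET cells differed from that in HDAC1cKO cells by the limma contrast over both experiments, in which genotype and culture cannot be told apart. The difference, as the first change less the second, was -2.59 for Il6ra (limma adjusted p = 0.000119), -1.21 for Jak2 (limma adjusted p = 0.00134), -2.42 for Ccl20 (limma adjusted p = 0.0428) and 0.56 for Stat3 (limma adjusted p = 0.0489). For Hdac2 it was -0.89 (limma adjusted p = 0.000328), and an Hdac2 allele was deleted in the first of the genotypes alone. Of the CD4 T cell markers, Cd3e, Cd3d, Cd4 and Cd28 also differed, by -0.62, -0.59, -0.43 and -0.36 (limma adjusted p = 0.00984, 0.0133, 0.0441 and 0.0399). The members showed 0 such differences. At an unadjusted limma p under 0.05 there was 1 of the 4 tested, Ccr6, beside 3628 of 12334 genes.

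Assembled loci without a name inside Il23r, which enter no comparison of gene levels, were found in 4 of 4 HDAC1cKO-HDAC2HET samples and in 0 of 4 WT samples. Mutant replicate 3 had 1 such locus and the lowest estimated depth of all libraries, and the other three mutant replicates had 3 or 4. The difference was not tested, and how many other genes show such a split was not counted.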

How the results depend on the processing

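Of 160 log2 changes of tested members under the alternatives, 157 kept their direction and their side of the threshold, 0 reversed, and 3 (Rora, Ahr and Ccr6 in HDAC1cKO cells) passed it when both experiments were fitted together. The 3 members called in HDAC1cKO-HDAC2HET cells became 1 of 2 tested, also with a fold of at least 2, at a minimum of 1 FPKM, which removes the other low genes, and 0 reached that fold with 1 added to FPKM. The 0 members called in HDAC1cKO cells became 3, also at that fold, in the joint fit. Counts of calls with sex as a covariate are not given, since a single restimulated WT sample then sets the WT level. Pathway genes called in HDAC1cKO cells went from 0 to 16 in the joint fit (8 with the fold). They went to 2 when protein-coding genes alone were tested (Il1r2 among them, both with the fold). In the joint fit the spread is estimated over 14 samples and 12334 genes are tested in place of 13886. The cause of the other changes was not tested. Leaving out each sample gave 3 to 3 members in HDAC1cKO-HDAC2HET cells, 0 to 0 in HDAC1cKO cells and 0 to 0 differences. For pathway genes it gave 35 to 38 (14 to 15 with the fold) and, in HDAC1cKO cells, 0 to 1 with or without the fold, where 1 was called without WT replicate 2 (Eomes) and 1 without WT replicate 3. Over all genes, the 2 higher and 8 lower calls in HDAC1cKO cells became 640 and 708 in the joint fit. Sex was the same in all unrestimulated samples and could not enter there. With the replicate number as a block, 3 and 0 members and 35 and 0 pathway genes were called, and 0 higher and 5 lower of all genes in HDAC1cKO cells. Deviations of same-numbered samples had r = -0.01 to 0.05 and -0.02 to 0.00, so that the numbers do not show a pairing. Members near 0 FPKM are limited by depth, since their estimates rest on a few fragments.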

Other observations

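Genes discussed here fall outside the rule for named genes and were chosen after their values were seen. Cyp1a1, the classical target gene of AHR, stood at 8.7, 3.92 and 1.9 FPKM in restimulated WT samples and at 0.223, 0.712 and 0.795 FPKM in HDAC1cKO samples, with ranges apart but a limma adjusted p of 0.197 (log2 change -2.74, or -3.27 without WT replicate 3). Without restimulation it was at 0.264 to 0.558 FPKM in WT and at 0.166 to 0.346 FPKM in HDAC1cKO-HDAC2HET samples, which overlapped. The difference between the changes of the experiments was 2.30 (SE 0.67, limma adjusted p = 0.0363). Gfi1, a repressor that opposes Th17 differentiation, rose from 22.0 to 73.9 FPKM in HDAC1cKO-HDAC2HET cells (log2 change 1.74) and stood at 31.4 and 47.0 FPKM in restimulated WT and HDAC1cKO cells (log2 change 0.60, limma adjusted p = 0.212, and 0.56 without WT replicate 3), and the changes differed by 1.15 (limma adjusted p = 0.000871).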
